A study of Caenorhabditis elegans with 2 samples.

Results

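The genes described here are the 346 small nucleolar RNA (snoRNA) genes of Caenorhabditis elegans, out of 46890 annotated nuclear genes. They are all the nuclear genes that the Ensembl models of the WBcel235 genome (ce11) class as snoRNA. The data are ChIP-seq peak lists of the Krüppel-like zinc-finger protein KLF-2 from whole mid-stage embryos with a labelled age of 1.5 hours that were collected by bleaching. There was 1 group of 2 biological replicates, and both carried the CRISPR allele st12310 of strain RW12310, in which klf-2 is fused to TY1, EGFP and 3xFLAG, and both were precipitated with an antibody against GFP. No second condition, untagged strain or input track was analysed, so genes were compared with genes. The strain label puts the allele on chromosome II, whereas the gene models place klf-2 on V. Each gene received as its score the highest signal value, in the authors' ranked list of both replicates, among peaks whose summit lay in the gene or within 100 bp of it, and 0 where there was none. A gene was called when that peak had a global irreproducible discovery rate (IDR) of at most 0.01. The score is a peak height from the authors' peak caller and not a measure of snoRNA levels.

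Box C/D snoRNAs guide 2′-O-methylation and box H/ACA snoRNAs guide pseudouridylation of ribosomal and spliceosomal RNA, each within a particle of core proteins. In most animals snoRNAs are cut out of the introns of host genes and have no promoter of their own. In worms, some snoRNA genes, inside introns and between genes, are known to have upstream promoters of their own. A tRNA gene, by contrast, carries its RNA polymerase III promoter inside the gene as an A box and a B box, which the factor TFIIIC binds. Judged by short sequence boxes, 15 of the 346 genes were of the C/D type, 75 of the H/ACA type and 256 fell under neither strict rule, so the annotated class was taken as it stands.

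The sequences just before some of the called genes carried a pair of short motifs. The lines below run 5′ to 3′ on the strand of the snoRNA gene, from 90 bases before the gene through its first 10 bases (RefSeq sequence, WBcel235). In genes that hold both boxes, capitals mark a match to a loose A box, TGGNNNAG, and the following match to a loose B box, GTTCNANNC. Where several A-box matches can form the pair, only the match nearest the gene is marked. The first 7 are called genes with high scores that hold both boxes, shown because they let the boxes be compared between introns and intergenic places, with A boxes that start 53 to 72 bases before the gene. C51F7.3, the gene with the pair and the highest score, is not printed because its A box starts at -99, outside the printed stretch. Y59E1B.14 is the only gene with both boxes that was not called. Directly before its marked A box it holds another match to the loose A box, tggccaag, left in lower case. T06C12.16, ZK994.7 and B0334.12 are called genes with high scores and without the pair, printed in lower case throughout. Of these, T06C12.16 does hold a match to the loose A box, tggcctag, and the bases gttcga, but no match to the loose B box. Their windows are chrII:11960808-11960907 (W03C9.9, plus strand), chrV:11314168-11314267 (T03F7.8, plus), chrV:19643178-19643277 (Y43F8C.22, minus), chrII:5105222-5105321 (C04G6.12, minus), chrIV:7574032-7574131 (F32E10.10, plus), chrV:11782902-11783001 (F55A11.10, plus), chrII:10840227-10840326 (M106.6, plus), chrX:1891419-1891518 (Y59E1B.14, plus), chrV:15873917-15874016 (T06C12.16, minus), chrV:8500489-8500588 (ZK994.7, plus) and chrII:11484593-11484692 (B0334.12, plus).
W03C9.9: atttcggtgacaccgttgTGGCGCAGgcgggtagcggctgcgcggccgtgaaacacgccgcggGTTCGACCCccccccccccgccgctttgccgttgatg
T03F7.8: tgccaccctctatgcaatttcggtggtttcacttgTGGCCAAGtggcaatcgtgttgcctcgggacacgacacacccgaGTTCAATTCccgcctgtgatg
Y43F8C.22: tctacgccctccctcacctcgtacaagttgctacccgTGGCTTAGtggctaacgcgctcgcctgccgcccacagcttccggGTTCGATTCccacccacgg
C04G6.12: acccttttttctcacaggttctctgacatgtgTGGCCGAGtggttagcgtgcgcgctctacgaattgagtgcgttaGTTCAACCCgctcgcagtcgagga
F32E10.10: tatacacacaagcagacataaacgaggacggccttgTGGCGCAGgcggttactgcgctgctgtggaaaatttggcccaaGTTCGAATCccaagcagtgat
F55A11.10: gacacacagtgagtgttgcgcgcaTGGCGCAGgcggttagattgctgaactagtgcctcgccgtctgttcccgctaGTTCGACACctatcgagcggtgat
M106.6: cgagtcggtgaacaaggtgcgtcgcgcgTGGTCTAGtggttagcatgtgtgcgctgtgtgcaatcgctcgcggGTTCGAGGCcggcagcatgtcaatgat
Y59E1B.14: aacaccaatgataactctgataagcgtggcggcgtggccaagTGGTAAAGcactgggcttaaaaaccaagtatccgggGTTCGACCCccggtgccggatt
T06C12.16: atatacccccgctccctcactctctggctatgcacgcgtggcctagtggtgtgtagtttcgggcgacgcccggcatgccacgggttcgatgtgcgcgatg
ZK994.7: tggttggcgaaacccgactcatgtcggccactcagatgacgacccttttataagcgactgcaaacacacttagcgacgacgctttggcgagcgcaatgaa
B0334.12: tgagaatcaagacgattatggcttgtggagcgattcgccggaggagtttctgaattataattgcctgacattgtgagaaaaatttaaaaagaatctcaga

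KLF-2 peaks that passed the IDR limit marked snoRNA genes several times as often as genes in general. Of the 346 genes, 54 were called (15.6%, exact 95% interval 11.9 to 19.9%), against 2.16% of all nuclear genes. Among other nuclear genes no longer than the longest snoRNA gene (344 bp), with piRNA genes left out, 4.78% were called. A summit of any strength was present at 201 snoRNA genes (58.1%), against 49.4% of all nuclear genes. The latter share mixes genes of unlike class and length. It was 77.5% for protein-coding, 71.4% for tRNA, 39.8% for microRNA, 32.6% for snRNA and 10.1% for piRNA genes. Gene length was not matched in these shares. The 54 called genes had 53 distinct peaks, all of them also in the authors' conservative thresholded list of 1032 peaks. Of the 10 highest peaks of that list 6 were at snoRNA genes, and of the 100 highest 22 were. That list lacks 176 of the peaks within the limit in the ranked list and ends at a signal value of 873, whereas the ranked list reaches 5615. In the ranked list, the highest peak at a called snoRNA gene had rank 21. The number of reads behind the lists is unknown, the intervals cover the counting of genes only, and genes are not replicates.

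The snoRNA genes fell into 4 classes by their place in protein-coding genes. A gene was intronic when it lay wholly inside an intron and touched no coding-gene exon, which held for 142 genes on the strand of the host and 27 on the opposite strand. A further 124 genes overlapped no protein-coding gene and are called intergenic, and the other 53 all touched an exon of a protein-coding gene. Intronic and intergenic genes were called at shares whose difference has an interval that includes 0: 28 of 169 intronic genes (16.6%, 11.3 to 23.0%) and 19 of 124 intergenic genes (15.3%, 9.48 to 22.9%), a difference of 1.25 points with a 95% Newcombe interval of -7.58 to 9.50 points. The median score was 13.8 for intronic and 16.4 for intergenic genes, with 72 and 49 genes at 0. Among called genes it was 176 for intronic and 211 for intergenic ones, and the ranges overlapped (70.5 to 873 and 86.4 to 662). Intronic genes on the opposite strand were called in 7 of 27 cases (25.9%) and those on the strand of the host in 21 of 142 (14.8%), a difference of 11.1 points whose interval (-3.30 to 30.5) includes 0. The genes that touched an exon were called in 7 of 53 cases (13.2%).

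**Figure D1:**
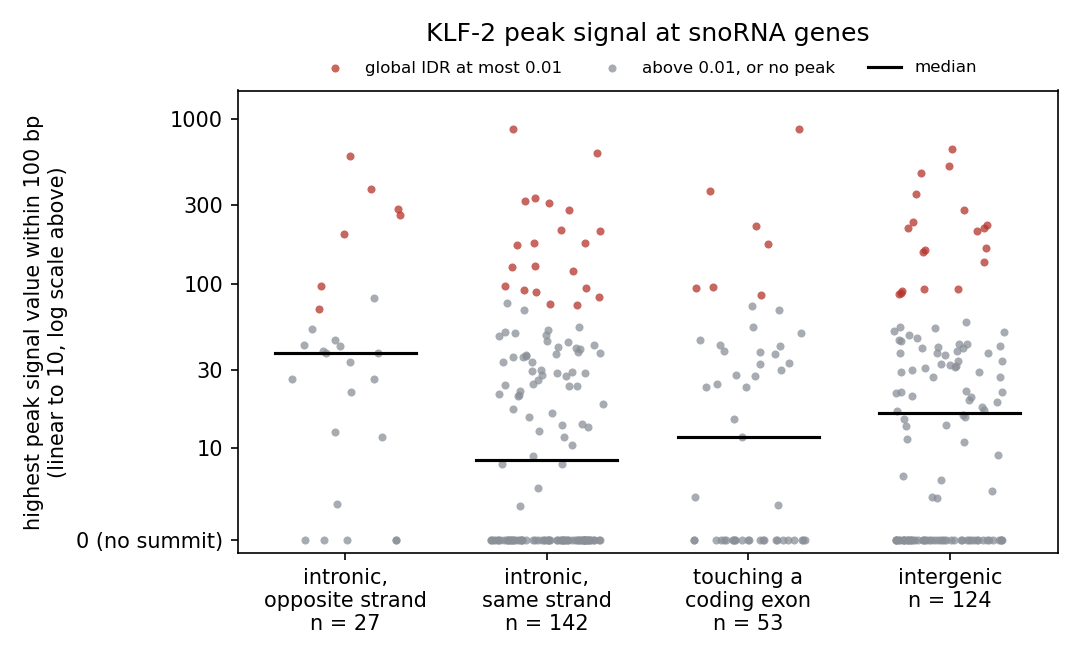
Highest KLF-2 peak signal value within 100 bp of each of the 346 snoRNA genes (y axis, linear to 10 and logarithmic above), by class, with 1 point per gene, called genes in red and the class median as a line. The 4 classes overlap throughout, and in each of them called genes reach from under 100 to over 300.

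Splitting the genes by the number in their WormBase identifier changed this picture. WormBase numbers genes roughly in the order in which they entered the database, and the genes separate into 141 with a number under 200000 and 205 with a number of 200000 or above. This split was chosen after the values were seen. Nearly all called genes were in the lower-numbered set: 51 of 141 (36.2%, 28.3 to 44.7%) against 3 of 205 (1.46%, 0.303 to 4.22%), a difference of 34.7 points (26.7 to 43). The share in the higher-numbered set was near the 2.16% of all nuclear genes, which its interval includes. It was below the 4.78% of other genes no longer than the longest snoRNA gene, piRNA genes left out, which its interval does not include. In the lower-numbered set, intronic genes were called less often than intergenic ones, with 28 of 99 (28.3%) intronic genes against 18 of 33 (54.5%) intergenic genes, a difference of -26.3 points (-43.8 to -7.15). That difference was -22.2 points (-40.3 to -4.59) in the list of replicate 1 alone and -28.3 points (-45.9 to -9.97) in that of replicate 2. Lower-numbered intronic genes on the strand of the host were called in 21 of 85 cases (24.7%, 16.0 to 35.3%). Those on the opposite strand were called in 7 of 14 (50%, 23.0 to 77.0%), a share near that of intergenic genes with a wide interval. Lower-numbered genes that touched an exon were called in 5 of 9 cases (55.6%, 21.2 to 86.3%). The lower-numbered intronic and intergenic groups differed in more than place. Median length was 126 bp for the lower-numbered intronic genes and 76 bp for the lower-numbered intergenic ones, and short genes were called more often (below). The intronic group also held 18 genes in introns of ribosomal protein genes, none of them called. The parts of length and host in the difference were not tested. In the higher-numbered set 0 of 70 intronic genes and 1 of 91 intergenic genes were called. What distinguishes the sets beyond their numbers, such as how the genes were annotated, was not tested. The 3 called genes with higher numbers were C51F7.4, T08H4.9 and ZK20.9.

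**Figure D2:**
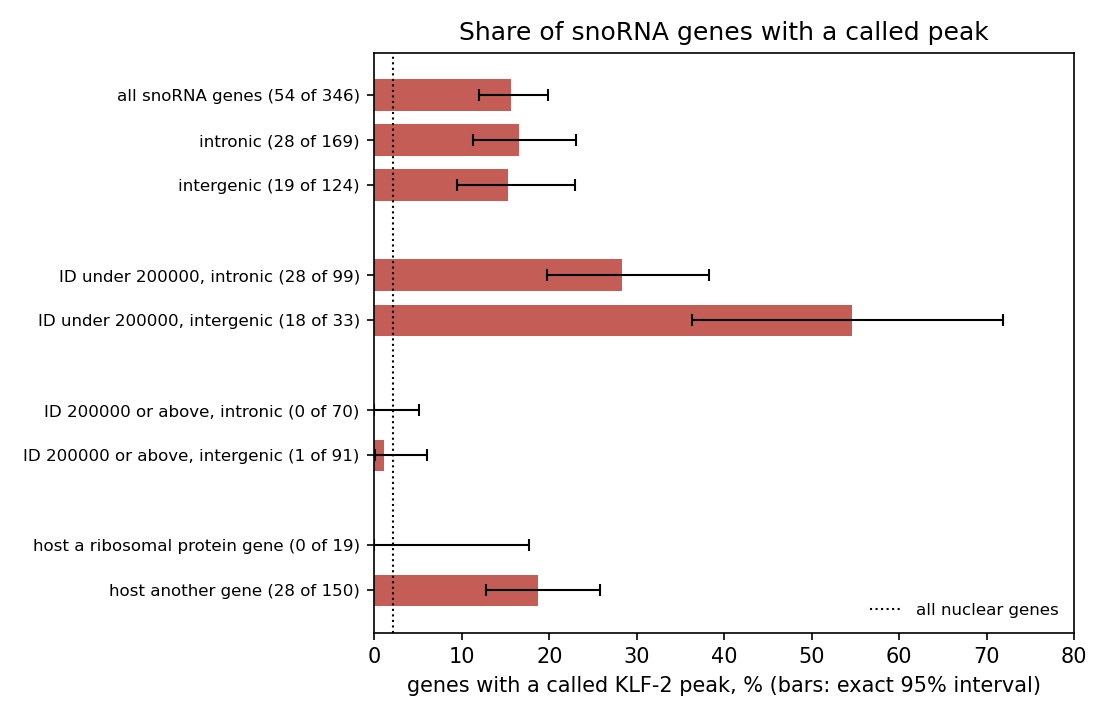
Share of snoRNA genes with a called KLF-2 peak (x axis, %), as bars with exact 95% intervals, for the whole set, by identifier number and by host gene. The dotted line marks all nuclear genes (2.16%). Of the sets plotted, lower-numbered intergenic genes have the highest share (54.5%), and no gene in an intron of a ribosomal protein gene was called.

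Introns of ribosomal protein genes, which are well-known snoRNA hosts in animals, held no called gene. There were 19 snoRNA genes in introns of 13 ribosomal protein genes, and 0 of them were called (exact upper limit 17.6%), against 28 of 150 in other hosts (18.7%, 12.8 to 25.8%). Ribosomal protein hosts were taken by a name that starts with rpl- or rps-, so any with another name, such as ubl-1, count among the other hosts. Of the 19, 18 had a lower identifier number, so they belong to the set in which calls were frequent. Their scores reached 40.6 for Y24D9A.10 in rpl-7A, a gene of the large ribosomal subunit, and were 38.2 for R151.13 in rpl-6, 36.7 for B0041.9 in rpl-4 and 0 for F53G12.12 in rpl-7. The highest of these was below the lowest score of any called gene (70.5). A lack of calls was not particular to these hosts. The snoRNA genes in nol-56 (K07C5.10, K07C5.11, K07C5.12 and K07C5.18), top-2 (K12D12.6, K12D12.7 and K12D12.8) and eef-1G (F17C11.14 and F17C11.15) all had scores of 0. The 28 called intronic genes sat in 28 different hosts. The hosts' own promoter windows, from 1000 bp before to 500 bp after a transcript start, held a called summit away from snoRNA genes for 2 of the 28 (unc-70, which encodes beta-spectrin, and ppat-1) and for 18 of the 141 intronic genes that were not called, which lie in 14 of their 122 hosts. With summits at snoRNA genes counted, the host windows held a called summit for 7 of the 28 called intronic genes and 19 of the 141 not called. Over all protein-coding genes 3.09% had a called summit in this window, snoRNA peaks included. The 7 include peaks of the snoRNA genes themselves, which were chosen for being called. The split by host was also chosen after the values were seen.

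The 8 highest scores in introns on the strand of the host belonged to genes of 67 to 138 bp in hosts that do not encode ribosomal proteins. C51F7.3 (V:12303708-12303783, plus strand), a C/D-type gene in an intron of the FERM-domain gene frm-7, had a joint signal value of 873, and 444 and 417 in replicates 1 and 2. It shared this peak, the highest of the thresholded list, with C51F7.4, which lies just upstream and touches an annotated exon. The summit was at position -73 of C51F7.3, counted from its first base with negative values upstream, and at position 36 of C51F7.4. ZK994.7, in an intron of the peroxidasin gene pxn-1, had 629 jointly, and 268 and 362 in the replicates, with the summit inside the gene at position 9. Y43F8C.22 in Y43F8C.7, the highest H/ACA-type gene, had 334 jointly, and 171 and 152, with the summit at -45. The next were D1046.6 in cfim-2, a gene of the pre-mRNA cleavage factor CFIm (318, summit at -48), C10C6.8 in catp-8, a cation-transporting ATPase gene (312, at -65), C27H6.5 in the stonin gene unc-41 (282, at -41), F55A11.10 in F55A11.6 (213, at -72) and M106.6 in mix-1, a condensin subunit gene (211, at -38). All of these 8 genes but ZK994.7 had the summit upstream. The summits of D1046.6 and F55A11.10 also lay in the promoter window of their hosts. They were at -263 bp from a transcript start of cfim-2 and 52 bp after a transcript start of F55A11.6.

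On the strand opposite to the host, T03F7.8 in the cuticlin-like gene cutl-18 (V:11314258-11314332, plus strand) had the highest value, 599.8 jointly and 285 and 313 in replicates 1 and 2, with the summit at -43. C04G6.12 in the MAP kinase gene mpk-2 had 285 (137 and 148, at -53), C27H5.9 in pdl-1 had 263 (125 and 133, at -20), and ZK484.9 in the ABC transporter gene haf-9 had 200.2 (107 and 96.3, at -51). The summit of C27H5.9 also lay 297 bp after a transcript start of its host, in the promoter window. All 4 summits lay before the snoRNA gene. B0334.12 (II:11484683-11484752, plus strand) in the potassium channel gene twk-5 was the exception. Its peak of 379 (194 and 183 in the replicates) had its summit at position 116, which is 47 bp past the end of the gene, and it was the only called gene with a downstream summit. T04A8.17 in ppat-1 followed with 97.3, and C17D12.8 in pcmd-1 had 70.5, the lowest value of any called gene. H04D03.5 in smrd-1 had 81.9 but was not called, with 59.5 in replicate 1 and 19.6 in replicate 2.

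Between genes, W03C9.9 (II:11960898-11960959, plus strand), a C/D-type gene of 62 bp, led with 662 jointly and 330.1 and 333 in replicates 1 and 2, and its summit was at -61. ZK265.10 had 520.2 (271 and 251, at -62) and T06C12.16 had 470.2 (247 and 221, at -42). T19B4.8 had 350.4 (163 and 193, at -46), F32E10.10 had 280.1 (144 and 140.0, at -43), ZK643.9 had 239 (127 and 108, at -48), T10B9.11 had 229 (97.6 and 126, at -20) and H09I01.2 had 218 (110.2 and 104, at -43). In all 8 genes the summit was upstream of the snoRNA gene. Measured from the nearest coding transcript start, the summit of W03C9.9 lay 1291 bp and that of ZK643.9 3484 bp downstream, while that of ZK265.10 lay at -621 bp from sre-23. Of all 54 called genes, 14 (25.9%) had their summit in a coding promoter window. The same held for 63 of the 147 genes (42.9%) with a summit that was not called. Those 63 are 21.6% of all 292 genes not called, among which genes without a summit cannot qualify.

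At the limit of calling, values on the inner and outer side were alike. The 3 called genes with the highest global IDR were C17D12.8 (signal value 70.5, −log10 IDR 2.03), F11A10.9 (74.6 and 2.11) and F25H2.15 (92.7 and 2.12). The 3 nearest genes outside were smy-2 (69.6 and 1.72), F22D6.16 (73.6 and 1.60) and W10C8.17 (76.5 and 1.47).

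Called summits kept to a narrow stretch before the gene. Of the 54 called genes, 43 had the summit upstream of the first base (79.6%, 66.5 to 89.4%), 10 inside the gene and 1 downstream. The median position was 41 bp before the gene, and 42 of the 54 summits lay 20 to 90 bp before it. Genes that had a summit but were not called had it more widely spread, with 63 upstream, 53 inside and 31 downstream (42.9% upstream, 34.7 to 51.3%) and a median of 40 bp inside. The place was alike in introns and between genes: 23 of 28 called intronic genes had an upstream summit (82.1%, 63.1 to 93.9%) with a median 40 bp before the gene, against 15 of 19 called intergenic genes (78.9%, 54.4 to 93.9%) with a median of 42 bp. For 23 of the 28 intronic genes the whole 100 bp before the gene lay in the same intron. The introns that hold called genes had a median length of 328 bp (201 to 5251), against 534 bp (82 to 20393) for those of genes not called.

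**Figure D3:**
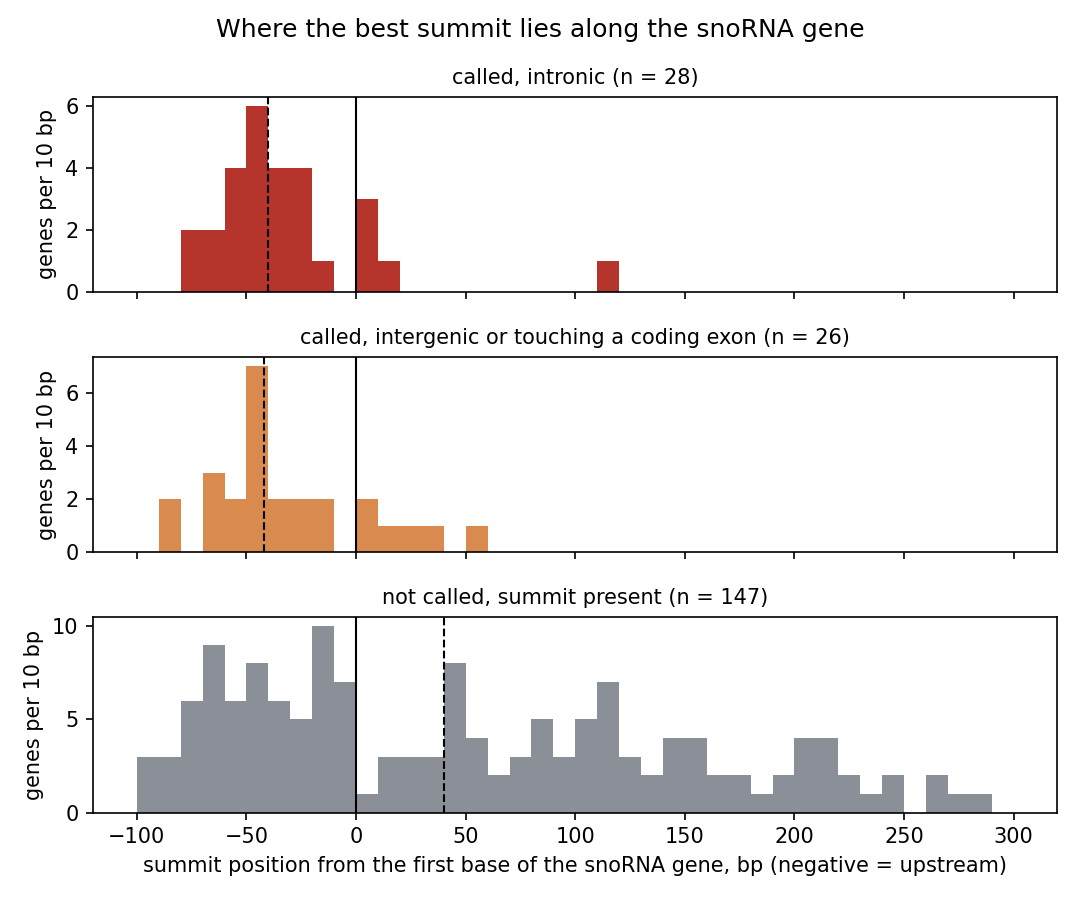
Position of the highest summit from the first base of the snoRNA gene (x axis, bp, negative upstream), as genes per 10 bp, for called intronic genes, for the other called genes and for genes with a summit that were not called. The solid line is the first base and the dashed line the median. Called summits cluster before the gene in both upper panels, with medians near 40 bp upstream, and those of the lowest panel spread over the gene and both sides.

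The paired boxes of the printed sequences were tied closely to calls. A loose A box followed by a loose B box whose starts lie 25 to 70 bases apart, on the sense strand within 150 bases before the gene, was present at 16 of 54 called genes (29.6%, 18 to 43.6%) and at 1 of 292 genes not called (0.342%, at most 1.89%). The loose boxes were drawn up after the sequences of called genes had been seen, so the share in called genes is a description and no independent evidence. The same pair was present at 26 of 46540 gene starts other than snoRNA (0.0559%) and at 10 of 19973 protein-coding starts (0.0501%). In the lower-numbered set alone, 0 of 90 genes that were not called had it (at most 4.02%). Of the 16 called genes, 8 were intronic, 7 intergenic and 1 touched an exon. Y59E1B.14, the exception on X, had a score of 19.5 with the summit at -28. Called genes with the pair had a median score of 221, and the 38 called genes without it 169.

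In most called genes with the pair, the summit lay between the boxes. In the 16 called genes the A box started at a median of 59.5 bases before the gene (49 to 99) and the B box at 14 (9 to 44), with starts a median of 44 bases apart, and in 13 of the 16 they were 43 to 46 bases apart. The summit lay a median of 13 bases after the start of the A box (quartiles 9.5 and 25.2) and between the starts of the boxes in 13 of 16 genes. The A box precedes the B box by the definition of the search. The exceptions were F55A11.10, with the summit 6 bases before its A box, and F30H5.4 and Y75B12B.12, with the summit inside the gene at positions 24 and 12. Over all 54 called genes, with or without the pair, the median summit was 41 bp before the gene, and 42 summits lay 20 to 90 bp before it. Called summits in general thus lay at similar places, and whether summit and boxes are linked was not tested. In tRNA genes, where the boxes lie inside the gene, 122 of the 204 called genes held the same loose pair, with starts also a median of 44 bases apart. There the summit lay a median of 9 bases after the start of the A box (quartiles -5 and 25), and between the boxes in 77 of the 122. No share is given for tRNA genes that were not called, so these values describe called tRNA genes only and do not link the pair to calls there. Each box alone was also more frequent before called genes: the A box at 29 of 54 (53.7%) against 39 of 292 not called (13.4%), and the B box at 22 (40.7%) against 13 (4.45%). At all nuclear gene starts these shares were 6.20% and 2.17%. Neither box was found at 19 of the 54 called genes, ZK994.7 and B0334.12 among them, which says only that these letters are not in this window.

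**Figure D4:**
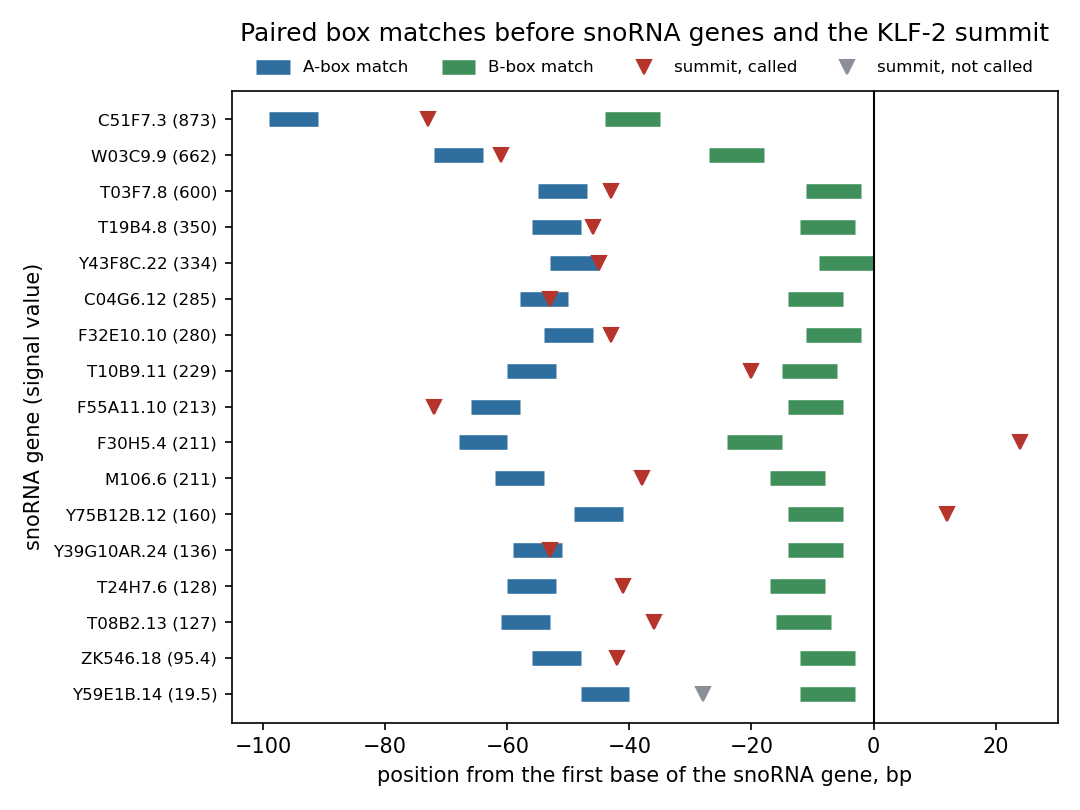
Positions of the A-box match, the B-box match and the KLF-2 summit along the 17 snoRNA genes that hold both boxes (x axis, bases from the first base of the gene, negative upstream), with the joint signal value beside each name. Where several matches form a pair, those nearest the gene are drawn, and Y59E1B.14 has another A-box match just before the drawn one. In 13 of the 16 called genes the summit lies between the starts of the boxes, and Y59E1B.14, at the bottom, was not called.

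The other motifs searched were related forms of the boxes, forms of the box that Krüppel-like factors recognise, and 2 further motifs. Motifs were searched on both strands from 150 bases before to 50 after the first base. The B-box core GTTCGA was present at 20 of 54 called genes (37.0%, 24.3 to 51.3%) and 21 of 292 not called (7.19%, 4.51 to 10.8%), beside 7.08% of all nuclear gene starts, and in all 20 called genes it ran in the sense direction. Its longer form GGTTCGA, which contains it, was at 10 called genes (18.5%) and 8 not called (2.74%), beside 1.60% of all starts. The A-box form TGGCNNAG was at 24 called genes (44.4%) and 29 not called (9.93%), beside 4.90%, and TGGCNNAGT, which contains it, at 15 (27.8%) and 11 (3.77%), beside 1.67%. Of the forms that Krüppel-like factors recognise, CCGCCC was at 10 called genes (18.5%, 9.25 to 31.4%) and 19 not called (6.51%, 3.96 to 9.97%), beside 4.09% of all starts, and CCACCC at 9 (16.7%) and 26 (8.90%), beside 3.68%. Within 50 bases of the called summit each was at 7 of 54 genes (13.0%), a window that genes without a summit do not have. In the 100 bases before the gene, CCGCCC was at 9.26% of called genes, 5.14% of those not called and 2.18% of all starts. CCACCC was there at 9.26%, 6.51% and 1.80%. For both, the intervals of called genes (3.08 to 20.3%) and of genes not called (2.90 to 8.33% and 3.96 to 9.97%) overlapped. CGCGCA was at 11 called genes (20.4%) and 13 not called (4.45%), beside 2.93%, and TATAAA at 12 (22.2%) and 41 (14%), beside 27.6%. The 150 bases before called genes had a median GC content of 52.0%, against 41.3% before genes not called, and the part of base composition in these shares was not tested.

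Short genes were called more often than long ones. Of 93 genes under 100 bp, 30 were called (32.3%, 22.9 to 42.7%), against 24 of 253 longer ones (9.49%, 6.17 to 13.8%), a difference of 22.8 points (13.2 to 33.3). Among lower-numbered genes the shares were 45.3% of 64 and 28.6% of 77, a difference of 16.7 points (0.823 to 31.8). By sequence boxes, 5 of 15 C/D-type genes (33.3%), 16 of 75 H/ACA-type genes (21.3%) and 33 of 256 unassigned genes (12.9%) were called. All 15 C/D-type genes had a lower number. By chromosome, called genes made up 13 of 74 on I, 14 of 71 on II, 5 of 54 on III, 8 of 59 on IV, 13 of 55 on V and 1 of 33 on X, where C53B7.8 had a value of 86.4. A stretch of 36 bases that also occurs elsewhere in the genome was present in 4 of 54 called genes and 38 of 292 not called.

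Some summits lay inside other annotated non-coding genes. Of the 54, 9 were inside a gene annotated only as ncRNA. At ZK484.9, T27A3.9, C05D2.15 and D1046.6 that ncRNA gene was on the same strand and ended just before the snoRNA gene, with gaps of 2, 4, 19 and 6 bp, and the ncRNA genes were 132, 62, 146 and 117 bp long. At Y37E3.20, T08B2.13, Y53F4B.48, F55A11.10 and W04D2.7 the ncRNA gene was on the opposite strand. It overlapped the snoRNA gene in all of these but Y37E3.20, where the gap was 9 bp. No snoRNA gene lay within 200 bp of a tRNA gene.

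The replicates ranked the called genes alike. In the replicates' own ranked lists, 39 genes were called in replicate 1 and 41 in replicate 2, against 1.11% of all nuclear genes in replicate 1 and 1.15% in replicate 2. Of the 54 genes of the joint list, 34 were called in both replicates, 41 in at least 1 and 13 in neither. Across these 54 genes the rank correlation of the replicates' signal values was 0.880 (Spearman's rho, n = 54), and across all 346 it was 0.622. The genes share libraries and the joint list selects for agreement, so both are descriptions. The upstream position was seen in each: 42 of 53 summits in replicate 1 (79.2%, 65.9 to 89.2%, median 45 bp before the gene) and 45 of 54 in replicate 2 (83.3%, 70.7 to 92.1%, median 43 bp). The pair of boxes was at 14 of the 39 genes called in replicate 1 and 15 of the 41 in replicate 2.

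**Figure D5:**
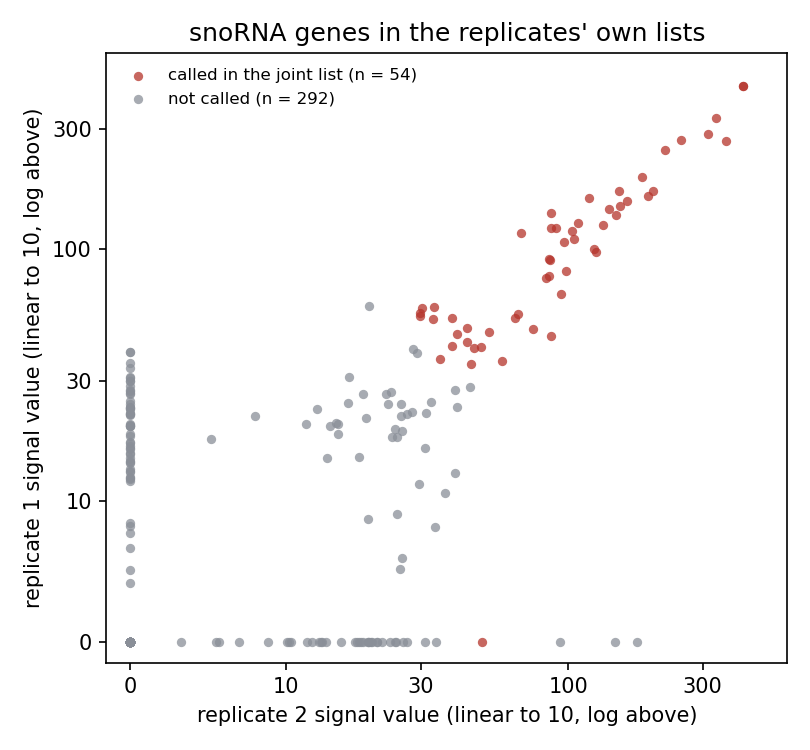
Highest signal value within 100 bp of each snoRNA gene in the list of replicate 1 (y axis) and of replicate 2 (x axis), both linear to 10 and logarithmic above, with 1 point per gene and genes called in the joint list in red. Called genes lie along the diagonal, 1 of them at 0 in replicate 1, and most other genes are at 0 in at least 1 replicate.

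Called snoRNA and tRNA genes differed in where the summit lay. Of the other classes, tRNA genes were called more often, in 204 of 612 cases (33.3%), which gives a difference of snoRNA minus tRNA genes of -17.7 points (-22.9 to -12.2). The summit was upstream at 79.6% of called snoRNA genes and at 18.6% of called tRNA genes, a difference of 61.0 points (47.1 to 70.8), and its median position was 41 bp before a snoRNA gene and 19 bp inside a tRNA gene. Genes classed as snRNA were called in 7 of 129 cases (5.43%), 10.2 points fewer than snoRNA genes (3.82 to 15.2), and microRNA genes in 5 of 261 (1.92%), 13.7 points fewer (9.44 to 18). Of the 5 called microRNA genes 2 had an upstream summit (40%, 5.27 to 85.3%), a share 39.6 points below that of snoRNA genes with an interval of 0.634 to 69.1 points. Of the 7 called snRNA genes, 6 had the summit inside the gene.

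Few protein genes of the snoRNA pathway had a called summit at their promoters. The list held 12 genes, for snoRNA particle proteins, their assembly factors and the ribonucleases of xrn-2 and parn-1. Of these 12, 2 had a called summit in a promoter window (16.7%, 2.09 to 48.4%), beside 3.09% of protein-coding genes. They were fib-1, which encodes fibrillarin, the methyltransferase of C/D particles (signal value 86.4, summit at -396 bp), and ruvb-1, an ATPase gene of particle assembly (78.7, at -74 bp). The genes of the other core proteins, nol-56, nol-58 and dkc-1 among them, had no called summit there. Of 17 genes for RNA polymerase III and its factors, 1 was called (5.88%, 0.149 to 28.7%): rpac-19, for a subunit shared by RNA polymerases I and III (79.7, at -96 bp). The TFIIIC genes tftc-1, tftc-3 and tftc-5 and the SNAPc gene snpc-4 had none. Both intervals include the 3.09% of protein-coding genes.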

How the data were processed

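KLF-2 ChIP-seq peaks of 2 biological replicates were analysed. Per the labels, coordinates are ce11. The authors deposited ranked lists per replicate and for both together, made by IDR analysis; the peak caller, aligner, versions and treatment of multiply mapping reads are not named in these sources. The authors' signal value of a peak is not normalized between lists, so it was used only within a list. The deposited −log10 IDR gave the limit of 2, and the deposited summit offset gave positions. The main list held 111583 peaks, 1208 of them within the limit. Depth is unknown.

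Gene classes came from Ensembl release 115 and sequence from RefSeq (WBcel235). Python 3.11.15, pandas 2.3.3 and scipy 1.17.1 computed counts, exact binomial intervals and Newcombe intervals, with genes counted as independent; nothing was tested, because 1 group gives no contrast between samples. The scoring was checked on simulated peaks. C/D-type genes have TGATGA in the first 25 and CTGA in the last 20 bases, and H/ACA-type genes have ACA 3 bases (1 either way) before the end. Genes were named by rule: the 8 highest scores of the same-strand intronic, opposite-strand intronic and intergenic classes, downstream summits, the 3 on each side of the limit, and the highest of each type; others were chosen after their values were seen. The members and lists were chosen with earlier results of these data known. Alternatives changed the window, limit, list, replicate, overlap, neighbours, repeats and class definitions.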

Additional observations from a re-analysis of the deposited data

How the results depend on the processing

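The shares called among intronic and among intergenic genes stayed within their exact 95% intervals under the alternatives (11.8 to 17.8% and 11.3 to 16.9%). With the summit within 50 bp, 11.3% of all genes were called, both class medians were 0 and the median summit was at -30 bp. Within 200 bp the class medians were 29.2 (intronic) and 28.4 (intergenic). An IDR limit of 0.05 put the median summit at -39 bp. The other series-level list gave medians of 13.5 and 18.4 and a summit at -40 bp, and any overlap of peak and gene 24.0 and 22.1 and -40 bp. Leaving out genes near other small-RNA genes gave 14.7 and 17.1, and leaving out genes with repeated stretches 14.7 and 17.7. With intergenic genes over 1000 bp from a coding start only, their median was 16 and the summit at -42 bp. With 1 replicate left out, the share called was 11.3 to 11.8%, both class medians were 0, the upstream share 79.5 to 92.7% and the median summit at -45 bp. In the window 100 before to 0 after, GTTCGA was at 3.42% and TGGCNNAG at 5.82% of genes not called. The causes were not tested. In all, 86 of 118 alternative values stayed within the main value's interval or spread. No paired analysis was possible because there is 1 group. Unknown depth limits statements on genes without a called peak.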

Other observations

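A few snoRNA genes were called in another list and not in the joint one. C41C4.11, an intergenic gene, had no summit within 200 bp in the joint list or in replicate 1, but a value of 176 in replicate 2 and 332 in the other series-level list, with the summit at -50 in both. F38E11.14, in an intron, had 146 in replicate 2 with the summit at -64, and 0 in the other 3 lists. F59C6.15, an intergenic gene, had a passing peak of 201 in the joint list with the summit at -114, just outside the window of 100 bp.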
